A study of Homo sapiens with 7 samples.

Results

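Heart muscle contracts with 2 motor proteins encoded side by side, the fast alpha-myosin heavy chain (MYH6) and the slow beta-myosin heavy chain (MYH7), and carries a more distant relative, MYH7B. The 9 genes described here, SOX6, THRA, THRB, PURA, PURB, MED13, SP3, EYA4 and DIO2, encode regulators that are known to set the balance between slow and fast myosins or to supply the hormone that does so. They were chosen by gene symbol from 60234 genes of the deposited expression table, and all 9 were found. The rule used gene symbols only, with no measured value, but the genes were chosen with earlier results of these data known.

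The cells were cardiomyocytes differentiated from WTC-11, an established human induced pluripotent stem cell line, and matured for 35 days. They then received at 2 uM for 96 h, by passive uptake, an antisense oligonucleotide (ASO). Such a molecule is a short man-made strand that base-pairs with its target RNA. The control group received a scrambled ASO (3 libraries) and the other group an ASO against MYH7B (4 libraries), and poly-A RNA was sequenced. All libraries come from 1 cell line and no label says that they are separate differentiations, so p-values measure only the spread between these libraries, which may be technical. The design asks what loss of the MYH7B transcript does in these cells, and the comparison below asks whether the regulators of slow myosin differed with it.

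Thyroid hormone is a main control of cardiac myosin: its receptors, encoded by THRA and THRB, sit on target genes and recruit corepressors without hormone and coactivators with it, raising MYH6 and lowering MYH7. SOX6 is a DNA-binding protein that represses slow-fibre genes in skeletal muscle. The PUR proteins and SP3 bind DNA or RNA of myosin genes and act mainly as repressors, and MED13 is a subunit of the kinase module that docks on the Mediator complex and restrains transcription. The myosin genes also host microRNAs: miR-208a lies within MYH6, miR-208b within MYH7 and miR-499 within MYH7B. In mice these microRNAs are known to act on SOX6, PURB, SP3 and MED13, which links the myosin genes back to their own repressors.

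The sequences of the 3 mature microRNAs (RefSeq, GRCh38.p14) are shown because their seeds define the sites searched for in the regulators. Capitals mark the seed, bases 2 to 8 from the 5′ end.
hsa-miR-208a-3p: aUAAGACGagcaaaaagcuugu
hsa-miR-208b-3p: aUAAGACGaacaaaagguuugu
hsa-miR-499a-5p: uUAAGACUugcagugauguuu
The miR-208 pair share all 7 seed bases and 19 of 22 bases in all. miR-499a-5p shares 6 of the 7 seed bases with them, positions 2 to 7, and differs at the last. The matching site in a transcript is therefore CGTCTTA for the miR-208 pair and AGTCTTA for miR-499a-5p, and both hold the shorter GTCTTA. Mature microRNAs carry no poly-A tail and were not measured in these libraries.

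The longest annotated 3′ untranslated end of each regulator (GENCODE 29 on GRCh38) was searched on the transcript strand. SOX6 held 5 matches to the miR-499a-5p seed within 6360 bases, and PURB held 4 within 8117 bases. At least 1 such match was present in 37.4% of the 843 genes with a 3′ end of similar length to SOX6 (0.8 to 1.25 times as long) and in 44.8% of the 498 of similar length to PURB. How many of those genes held as many as 5 or 4 matches was not counted. The 5 SOX6 sites and the 4 PURB sites are printed below in 22-base windows, 5′ to 3′, with the seed match in capitals and lettered in the order of their positions. The SOX6 matches lie at chr11:15972514-15972520, chr11:15972203-15972209, chr11:15972181-15972187, chr11:15971888-15971894 and chr11:15971591-15971597, all on the minus strand.
SOX6 site a: gtcttacaAGTCTTAtattttt
SOX6 site b: attttgaaAGTCTTAaaggaga
SOX6 site c: cactgcaaAGTCTTAgacaatc
SOX6 site d: tgacattcAGTCTTAacacatt
SOX6 site e: aggtatatAGTCTTAcacttaa
The PURB matches lie at chr7:44883261-44883267, chr7:44881528-44881534, chr7:44878848-44878854 and chr7:44878091-44878097, also on the minus strand.
PURB site a: aaaactgaAGTCTTAatttacc
PURB site b: ggtttttaAGTCTTAaccaatc
PURB site c: cagccctcAGTCTTAaaactca
PURB site d: tcgtccccAGTCTTAactctga
The SOX6 matches were all within 1212 bases of the stop codon, whereas those in PURB were spread from position 1143 to position 6313.

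A match to the miR-208 seed, which contains a CG pair, is rarer: 1.7% of 19022 genes had 1 or more, against 9.8% for the miR-499a-5p seed. MED13, SP3 and DIO2 each held 1. The share among genes with 3′ ends of similar length was 4.2% for MED13 (1892 genes), 4.0% for SP3 (2117 genes) and 5.2% for DIO2 (1031 genes). The MED13 match (chr17:61945897-61945903, minus strand), the SP3 match (chr2:173909110-173909116, minus strand) and the only miR-499a-5p match in THRB (chr3:24119387-24119393, minus strand) are shown because these genes recur in the results.
MED13: tatgtaatCGTCTTAattaaaa
SP3: gtgtattgCGTCTTAgcagtga
THRB: atgaaatcAGTCTTAcagtttt
SP3 and PURA each also held 1 miR-499a-5p match, as did 21.1% and 51.8% of genes of similar length. THRA and EYA4 held neither 7-base match. A match describes these letters only and does not show that a microRNA acts there.

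**Figure D1:**
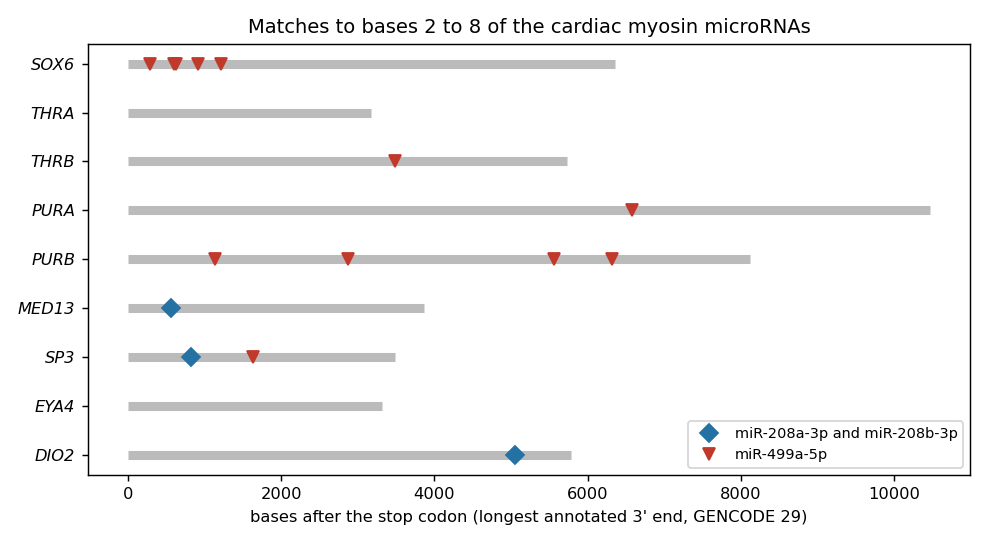
Positions of 7-base seed matches in the longest annotated 3′ end of each regulator, in bases after the stop codon; grey bars show the length of each 3′ end, red triangles miR-499a-5p matches and blue diamonds matches to miR-208a-3p and miR-208b-3p. SOX6 carries 5 red matches near its start, 2 of them nearly on top of each other, PURB carries 4 spread along its length, and THRA and EYA4 carry none.

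Levels are given in TPM, an abundance per transcript length relative to the whole library. The depth of the libraries is unknown, since TPM keeps no record of it. Of the MYH7B ASO libraries, replicate 1 was deposited with its values out of step with the gene names. It was therefore left out of the comparison, which rests on scrambled ASO replicates 1 to 3 and MYH7B ASO replicates 2 to 4, and its values after reordering are given separately. In these 6 libraries 15290 to 16207 genes reached 1 TPM and mitochondrially encoded genes took 27.4% to 33.6% of TPM. MYH7B itself was at 23.0, 36.5 and 25.1 TPM under the scrambled ASO and at 9.30, 5.65 and 6.31 TPM under its own ASO, with no overlap between the groups. It fell by 1.85 on the log2(TPM + 1) scale (SE 0.24, limma adjusted p = 0.0109). With 1 library left out the limma adjusted p was 0.0257 to 0.0618, above the threshold only without MYH7B ASO replicate 4. It was also above the threshold with replicate 1 added (0.0525), without the filter on low values (0.0779) and with a replicate block (0.331 and 0.720). Cardiomyocyte markers summed to between 11840 and 13020 TPM under the scrambled ASO and to between 9494 and 11860 TPM under the MYH7B ASO. Of 13 tested, 1 was called lower by limma, as were 1.48% of all tested genes. Fibroblast markers summed to 2919 to 5242 TPM and to 1382 to 2125 TPM, with 2 of 9 called lower, and smooth muscle markers to 940.9 to 1340 TPM and to 555.4 to 736.2 TPM, with 1 of 5 called lower. Not all markers went that way: the fibroblast genes PDGFRA (23.7 ± 4.01 and 36.3 ± 4.27 TPM, SD, n = 3 each) and TCF21 (8.40 ± 1.62 and 14.4 ± 3.42 TPM) were higher in every MYH7B ASO library, and the estimates of 2 of the 5 smooth muscle markers were above 0. PDGFRA and TCF21, named after their values were seen, were called higher in the authors' deposited table (adjusted p = 0.00287 and 0.00270) and not by limma (adjusted p = 0.152 and 0.168). No tested marker of the epicardial, proliferation, endothelial, skeletal muscle, endoderm, neural and pluripotent lists was called by limma. Tested were only 2 of 6 endothelial, 1 of 6 endoderm, 1 of 5 skeletal muscle, 2 of 5 neural and 2 of 5 pluripotent markers. The authors' deposited table called TEK (endothelial) lower (adjusted p = 0.00346) and APOA1 (endoderm) higher (adjusted p = 0.00103). Endoderm markers summed to 4.03 to 6.50 TPM under the scrambled ASO and to 10.4 to 15.6 TPM under the MYH7B ASO. Of the 5 skeletal muscle markers MYF5 was listed at 0 in every library, while no fibroblast or smooth muscle marker was. The others averaged, under the scrambled and the MYH7B ASO, 0.977 and 0.652 TPM (MYOD1), 0.533 and 0.493 TPM (MYOG), 0 and 0.0099 TPM (PAX7), and 404 and 351 TPM (CKM). The part of these shifts in any result below was not tested, and in bulk RNA fewer cells of a type and less RNA per cell cannot be told apart.

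None of the 7 regulators that averaged 1 TPM or more passed the test across all genes (limma, adjusted p under 0.05 over 15988 genes). Of the 7, 3 had an unadjusted p under 0.05, THRB, SOX6 and MED13, all with lower estimates under the MYH7B ASO. THRB had the largest difference, at 25.2% of its scrambled ASO mean, and it was called lower in the authors' deposited table. THRA and PURB had estimates close to 0, and those of SP3 and PURA were above it. EYA4 and DIO2 were below 1 TPM on average and were not tested.

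As background, 265 of the 15988 genes tested were called, or 1.66%, of which 236 were lower (1.48%) and 29 higher (0.181%). The lower share of the calls was 89.1%, and 78.6% after median-ratio or quantile rescaling. An unadjusted p under 0.05 was reached by 15.2% of all genes. The 3 values of each group did not overlap in 21.2% of all genes, lower in 14.1% and higher in 7.11%. Among the 7 regulators the groups did not overlap in 4: THRB and MED13 were lower in every MYH7B ASO library, and PURA and SP3 higher. The authors' deposited table called 8.71% of its 15527 genes with an adjusted p, 5.69% lower and 3.02% higher, and called 1 of the 7 regulators. Its headers do not name the libraries that entered it, so its calls and those of limma may rest on different libraries.

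The regulators differed widely in level under the scrambled ASO. SP3 (25.2 ± 0.215 TPM, SD, n = 3) and THRA (25.0 ± 0.671 TPM) were the most abundant and overlapped each other, at the 76.5 and 76.3 percentiles of tested genes. PURB followed at 13.5 ± 1.31 TPM. MED13 (9.92 ± 1.04 TPM) and SOX6 (8.57 ± 2.20 TPM) overlapped near the middle of the distribution, at its 51.4 and 47.4 percentiles. PURA stood at 5.41 ± 0.291 TPM and THRB at 3.40 ± 0.944 TPM, each separate from its neighbours in the order. DIO2 and EYA4 came last with means of 0.486 and 0.461 TPM, which overlapped. Without scrambled ASO replicate 2, 6 of the 9 took another rank: THRA came first, SOX6 stood above MED13 and EYA4 above DIO2.

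**Figure D2:**
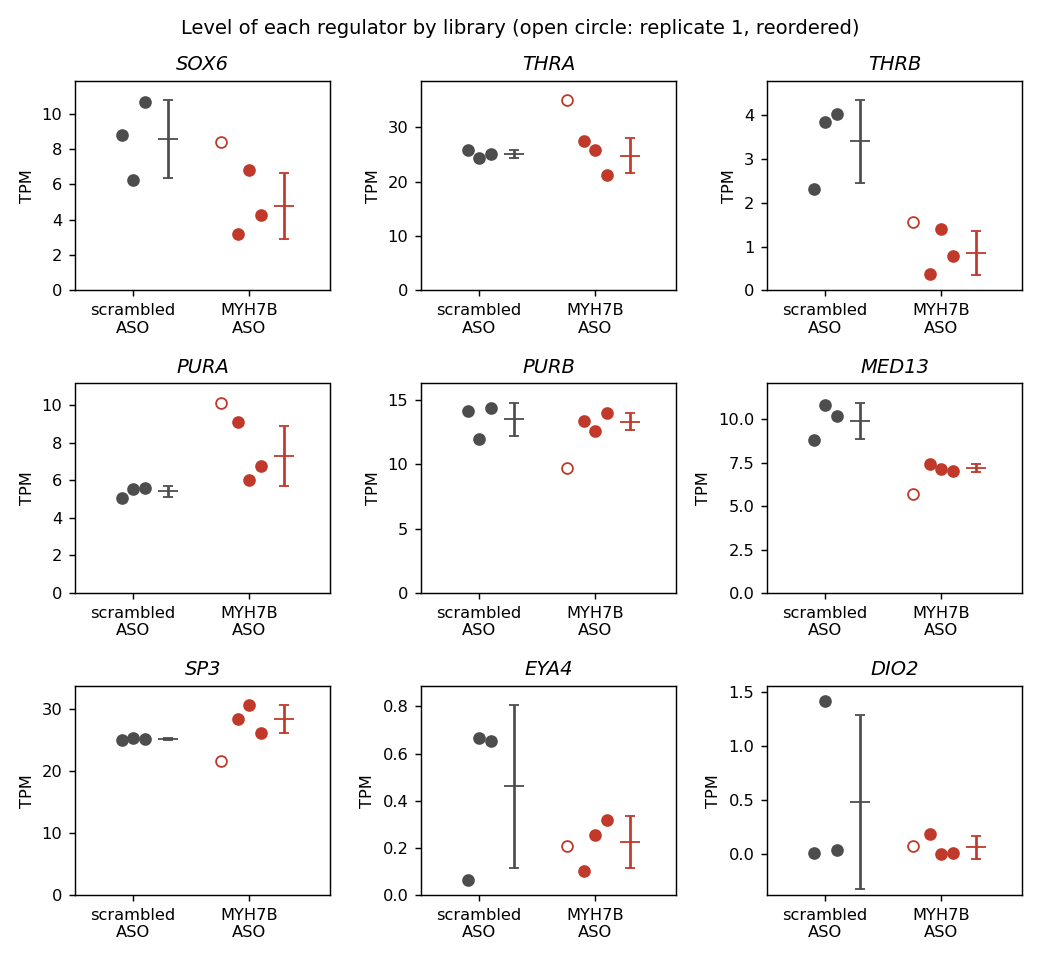
TPM of the 9 regulators in each library (linear axes, a separate scale per gene); filled circles are the libraries compared, the open circle is reordered MYH7B ASO replicate 1, and bars beside the points are the mean and SD of 3 libraries. The groups stand apart for THRB and MED13 (lower) and PURA (higher), SOX6 overlaps, and the DIO2 mean under the scrambled ASO rests on 1 library at 1.41 TPM, so that its SD bar extends below 0.

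SOX6 (ENSG00000110693.18, chr11:15966449-16739591, minus strand, GENCODE 29 on GRCh38) is a member of the SOX group D proteins, which lack an activation domain of their own and work through partners. It was at 8.78, 6.27 and 10.7 TPM under the scrambled ASO and at 3.20, 6.84 and 4.24 TPM under the MYH7B ASO. The MYH7B ASO libraries lay lower except for replicate 3, which was above the lowest scrambled ASO library, so the groups overlapped. The log2 difference was -0.75 (SE 0.28, 95% interval -1.40 to -0.11) with a limma adjusted p of 0.256. It was -0.48 with 5 TPM added in place of 1. In the authors' deposited table SOX6 had a shrunken log2 fold change of -0.58, an adjusted p of 0.0762 and a mean normalized count of 774. MYH7, the slow myosin itself, had a log2 difference of -1.27 with a limma adjusted p of 0.148. MYH7 was at 1207, 1146 and 535 TPM under the scrambled ASO and at 568, 256 and 358 TPM under the MYH7B ASO, so that these groups overlapped as well.

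C11orf58 overlaps SOX6 on the opposite strand over 126460 bases, and no source used here says whether counting used the strand. It was far more abundant than SOX6, at 142, 116 and 135 TPM against 109, 141 and 122 TPM, and its groups overlapped (log2 difference -0.08, limma adjusted p = 0.836). Of the SOX group D proteins and their corepressors none of 7 tested genes was called by limma. An unadjusted p under 0.05 was reached by 1, SOX6 itself. Over all tested genes these shares were 1.66% and 15.2%. SOX5, the closest relative of SOX6, was at 1.35, 1.16 and 3.01 TPM and at 0.682, 1.01 and 0.370 TPM. These groups did not overlap, but the log2 difference of -0.71 had a limma adjusted p of 0.452. The most abundant gene of the list, the histone deacetylase HDAC2, averaged 158 ± 12.5 TPM and 178 ± 19.6 TPM (SD, n = 3 each; limma adjusted p = 0.601).

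Slow fibre genes, which SOX6 is known to repress in skeletal muscle, were measured for 12 of 12 listed members. Of these, 2 were called by limma, both lower, against 1.48% of all tested genes called lower. The estimates of the list were above 0 in 3 and below 0 in 9. MYL2, the ventricular regulatory light chain that partners slow myosin, was at 21.7, 16.7 and 18.0 TPM and at 5.74, 4.59 and 2.41 TPM. It fell by 1.96 on the log2 scale (SE 0.27, limma adjusted p = 0.0121). Leaving out 1 library at a time gave adjusted p from 0.0299 to 0.0556, under the threshold in 5 of 6 cases. The other called gene of the list was MYH7B, the ASO target. The list's most abundant gene, the slow troponin I gene TNNI1, was at 1106, 1302 and 1186 TPM and at 2324, 1317 and 1344 TPM. Its MYH7B ASO libraries were all higher, with a log2 difference of 0.42 and a limma adjusted p of 0.404. CASQ2, the cardiac calsequestrin that stores calcium, was chosen after its values were seen, since the authors' deposited table called it lower (adjusted p = 0.00117). It went from 7.75 ± 1.95 to 2.76 ± 0.813 TPM (SD, n = 3 each), with a limma adjusted p of 0.0637.

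PURA (ENSG00000185129.7, chr5:140107777-140125619, plus strand) and PURB (ENSG00000146676.10, chr7:44876293-44885361, minus strand) encode the purine-rich element binding proteins alpha and beta, which bind single-stranded DNA and RNA and are known to repress alpha-myosin. PURA was at 5.08, 5.55 and 5.61 TPM under the scrambled ASO and at 9.12, 6.03 and 6.76 TPM under the MYH7B ASO. Every MYH7B ASO library was higher than every scrambled ASO library, by a margin that in replicate 3 was smaller than the spread of its own group. The log2 difference was 0.36 (SE 0.20, 95% interval -0.11 to 0.82) with a limma adjusted p of 0.454. It was 0.20 without MYH7B ASO replicate 2 (limma adjusted p = 0.774). PURB was at 14.1, 11.97 and 14.3 TPM and at 13.4, 12.6 and 14.0 TPM. The PURB values of the MYH7B ASO group all lay inside the range of the scrambled ASO group, with a log2 difference of -0.01 (95% interval -0.37 to 0.34, limma adjusted p = 0.977). In the authors' deposited table the shrunken log2 fold changes were 0.42 for PURA (adjusted p = 0.127) and 0.05 for PURB (adjusted p = 0.900).

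In each of the 6 libraries compared PURA was the scarcer of the pair. The ratio of PURA to PURB in TPM was 0.360, 0.464 and 0.391 under the scrambled ASO and 0.683, 0.479 and 0.484 under the MYH7B ASO. On the log2(TPM + 1) scale the ratio averaged -1.17 ± 0.17 and -0.80 ± 0.26 (SD, n = 3 each), a difference of 0.37. All 3 MYH7B ASO libraries had the higher ratio, and the 2-sided exact permutation test over 20 splits gave p = 0.1, the smallest it can give. Without MYH7B ASO replicate 2 the difference was 0.22, with MYH7B ASO replicate 1 added it was 0.58 (exact p = 0.114), and over the 6 cases with 1 library left out the exact p was 0.1 to 0.3. The antisense gene AC004854.2, which overlaps PURB by 409 bases, averaged 2.05 and 1.38 TPM with overlapping groups.

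SP3 (ENSG00000172845.15, chr2:173906459-173965702, minus strand) binds the same GC-rich boxes as SP1 and can act as a repressor there. Its scrambled ASO libraries were nearly equal at 25.0, 25.4 and 25.2 TPM, and the MYH7B ASO libraries stood at 28.4, 30.6 and 26.1 TPM. The groups did not overlap, yet the log2 difference was small, at 0.16 (SE 0.14, 95% interval -0.15 to 0.48, limma adjusted p = 0.617). Its shrunken log2 fold change in the authors' deposited table was 0.22 (adjusted p = 0.421). Of 9 tested PUR and SP proteins, including these 3, none was called by limma and 1, SP4, had an unadjusted p under 0.05. Of all tested genes 1.66% were called and 15.2% had an unadjusted p under 0.05. SP4, a relative of SP3 that was chosen after its values were seen, was at 5.06, 3.12 and 2.44 TPM and at 1.28, 0.661 and 0.973 TPM. The authors' deposited table called SP4 lower (adjusted p = 0.00116), whereas limma gave a log2 difference of -1.18 with an adjusted p of 0.138. SP1 itself averaged 20.04 ± 1.23 and 17.2 ± 1.56 TPM, with every MYH7B ASO library lower and a limma adjusted p of 0.570. YBX1, the most abundant of the list and a partner of the PUR proteins, differed by -0.04 on the log2 scale (limma adjusted p = 0.878).

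THRB (ENSG00000151090.19, chr3:24117153-24495756, minus strand) encodes the beta thyroid hormone receptor. It was at 2.31, 3.85 and 4.03 TPM under the scrambled ASO and at 0.383, 1.39 and 0.786 TPM under the MYH7B ASO. Every MYH7B ASO library was below every scrambled ASO library, and the means were 3.40 ± 0.944 and 0.854 ± 0.509 TPM (SD, n = 3 each). The log2 difference was -1.26 (SE 0.34, 95% interval -2.04 to -0.47), with a limma adjusted p of 0.133. In the authors' deposited table THRB was called lower, with a shrunken log2 fold change of -1.04, an adjusted p of 0.00105 and a mean normalized count of 203. The difference depended on the pseudocount, as it does for a gene of this level: it was -1.98 with 0.1 TPM and -0.52 with 5 TPM added in place of 1. The adjusted p ranged from 0.108 to 0.720 over the 17 alternatives that tested THRB by limma. The summed levels of fibroblast and smooth muscle markers were also lower in the same libraries, with the exceptions given above. Cardiomyocyte marker sums overlapped between the groups, with 10 estimates below 0 and 3 above. The part of these marker shifts in the THRB difference was not tested.

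THRA (ENSG00000126351.12, chr17:40058290-40093867, plus strand) encodes the alpha receptor, the main form in heart. It was at 25.7, 24.4 and 25.0 TPM under the scrambled ASO and at 27.4, 25.7 and 21.2 TPM under the MYH7B ASO. The 2 groups overlapped and had almost the same mean. The log2 difference was -0.02 (SE 0.15, 95% interval -0.37 to 0.33, limma adjusted p = 0.964), and its sign turned under median-ratio and quantile rescaling. In the authors' deposited table THRA stood at 0.04 (adjusted p = 0.907), from a mean normalized count of 2802. A value per gene does not separate the hormone-binding product of THRA from its other splice form, which does not bind the hormone. THRA overlaps MED24 and NR1D1 on the opposite strand. MED24 averaged 22.1 and 23.9 TPM and NR1D1, the REV-ERB alpha repressor, 7.48 and 5.63 TPM, both with overlapping groups and with limma adjusted p of 0.872 and 0.445.

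THRA exceeded THRB in every library. The ratio of THRA to THRB in TPM was 11.1, 6.33 and 6.21 under the scrambled ASO and 71.7, 18.4 and 27.0 under the MYH7B ASO. All 3 MYH7B ASO libraries had the higher ratio. On the log2(TPM + 1) scale it averaged 2.59 ± 0.37 and 3.83 ± 0.47 (SD, n = 3 each), a difference of 1.24, with a 2-sided exact permutation p of 0.1, the smallest that 20 splits can give. The difference was 1.96 with 0.1 TPM and 0.50 with 5 TPM added in place of 1. With 1 library left out it was 0.97 to 1.45 (exact p 0.1 to 0.2), and with MYH7B ASO replicate 1 added 1.23. By limma THRA differed by -0.02 and THRB by -1.26, so the ratio mostly restates the THRB difference and is not a separate result.

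DIO2 (ENSG00000211448.12, chr14:80197527-80387757, minus strand) encodes the deiodinase that turns the prohormone thyroxine into active triiodothyronine inside cells. It was at 0.0101, 1.41 and 0.0346 TPM under the scrambled ASO and at 0.189, 0 and 0.00901 TPM under the MYH7B ASO. Only scrambled ASO replicate 2 was above 1 TPM, and the other 5 libraries were near or at 0. The gene was under the limit for testing, and the authors' deposited table gives it a mean normalized count of 11.4 and no adjusted p. Without the limit on low values the log2 difference was -0.36 with a limma adjusted p of 0.706.

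The list of thyroid hormone supply genes, with deiodinases (DIO2 among them), membrane transporters and a hormone-binding protein, could be tested for 6 of 10 members, and none was called by limma. An unadjusted p under 0.05 was reached by 3 of the 6, all lower, and by 15.2% of all tested genes in either direction. The list's median log2 difference was -0.63 against -0.04 over all tested genes. The 3 listed genes under 0.05, named after their values were seen, were SLC7A8 and SLC7A5, amino acid transporters that also carry thyroid hormones, and CRYM, a cytosolic protein that binds triiodothyronine. SLC7A8 was at 10.8, 9.78 and 8.80 TPM and at 4.18, 5.59 and 4.46 TPM, without overlap (log2 difference -0.92, limma adjusted p = 0.0569). CRYM was at 3.13, 3.73 and 5.40 TPM and at 1.38, 2.03 and 1.99 TPM, also without overlap (-0.85, limma adjusted p = 0.194). The SLC7A5 groups overlapped. In the authors' deposited table SLC7A8 (adjusted p = 0.00116) and SLC7A5 (adjusted p = 0.0242) were called lower. SLC3A2, the shared heavy chain of these transporters and the most abundant of the list, averaged 43.8 ± 13.8 and 47.2 ± 11.2 TPM (SD, n = 3 each; limma adjusted p = 0.860).

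Receptor partners, the RXR heterodimer partners, corepressors and coactivators, were tested for 17 of 17 listed genes, with THRA and THRB counted among them. Of these, 1, TBL1X, was called by limma, and 5 had groups that did not overlap, all lower, THRB among them. Over all tested genes 1.48% were called lower by limma and 14.1% were lower without overlap. TBL1X, a subunit of the corepressor complex that unliganded receptors recruit, was at 6.51, 4.92 and 5.73 TPM and at 1.53, 1.47 and 1.87 TPM. It fell by 1.35 on the log2 scale (SE 0.23, limma adjusted p = 0.0296). It was called lower in the authors' deposited table as well (adjusted p = 8.14e-09). With any 1 library left out the limma adjusted p was between 0.0662 and 0.106, above the threshold in all 6 cases.

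Known cardiac targets that thyroid hormone induces included no called gene by limma among 7 tested, nor any with an unadjusted p under 0.05, and their median log2 difference was -0.0042. MYH6, the most abundant of them, was at 954, 1555 and 998 TPM and at 1309, 1048 and 1459 TPM, with overlapping groups (log2 difference 0.14, limma adjusted p = 0.788). Targets that the hormone represses included no called gene among 6 tested by limma. An unadjusted p under 0.05 was reached by 3 of them, all lower, and by 15.2% of all tested genes in either direction. PLN, which restrains the calcium pump of the sarcoplasmic reticulum, was at 1045, 1032 and 835 TPM and at 741, 622 and 777 TPM, without overlap. The PLN difference of -0.44 had a limma adjusted p of 0.188. The estimates of all 6 repressed targets, THRA among them, were below 0, with a median of -0.43 against -0.04 over all tested genes. That of THRA, at -0.02, turned sign with the scaling, and that of ADCY6 was -0.07 (limma adjusted p = 0.919). The authors' deposited table called 1 of the 6 lower, SLC8A1 (adjusted p = 0.0285). ADCY6 and SLC8A1 were named after their values were seen.

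**Figure D3:**
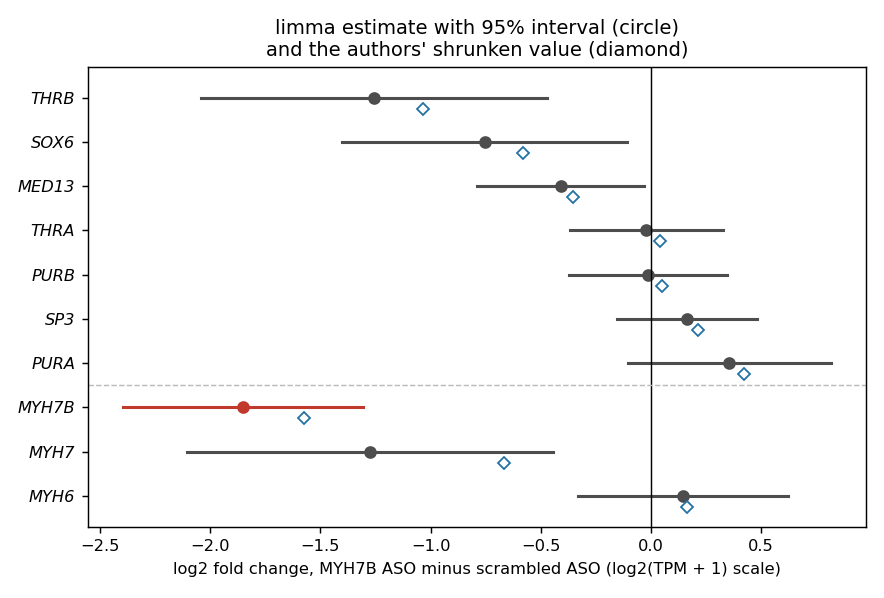
Log2 fold change of the 7 tested regulators and of MYH7B, MYH7 and MYH6 (log2(TPM + 1) scale, MYH7B ASO minus scrambled ASO); circles and bars are limma estimates with 95% intervals, red marks a called gene, and diamonds are the shrunken values of the authors' deposited table. The intervals of THRB, SOX6 and MED13 lie below 0 before adjustment for 15988 genes, and those of THRA, PURB, SP3 and PURA span 0.

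MED13 (ENSG00000108510.10, chr17:61942605-62065282, minus strand) joins the kinase module to core Mediator, and in mouse heart it is known to affect metabolism and to be held down by miR-208a. It was at 8.79, 10.8 and 10.2 TPM under the scrambled ASO and at 7.45, 7.14 and 7.01 TPM under the MYH7B ASO. Every MYH7B ASO library was lower, and the 3 were close together, with an SD of 0.228 TPM against 1.04 TPM. The log2 difference was -0.41 (SE 0.17, 95% interval -0.79 to -0.03) with a limma adjusted p of 0.292. In the authors' deposited table MED13 stood at -0.36 (adjusted p = 0.141), from a mean normalized count of 1324.

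The kinase module consists of MED12, MED13, cyclin C and CDK8, with MED12L, MED13L and CDK19 as the paralogs of 3 of them. Of its 7 genes 6 were tested and none was called by limma, while 3 had an unadjusted p under 0.05 and groups that did not overlap, all lower. These 3 were MED13, MED13L and CDK19. Over all tested genes 15.2% had an unadjusted p under 0.05 in either direction, and 14.1% were lower without overlap. MED13L, the paralog of MED13 and the most abundant of the module, was at 28.9, 34.5 and 33.4 TPM and at 20.8, 22.8 and 21.5 TPM. Its log2 difference was -0.55 (SE 0.14, limma adjusted p = 0.120). It was among the genes called lower in the authors' deposited table (adjusted p = 0.0179). CDK19 was at 9.40, 12.3 and 10.4 TPM and at 5.78, 8.76 and 7.13 TPM, with a log2 difference of -0.52 and a limma adjusted p of 0.272. CDK8, its paralog, averaged 17.7 ± 1.15 and 20.6 ± 2.50 TPM, CCNC 30.2 ± 3.83 and 37.4 ± 5.11 TPM, and MED12 17.3 ± 5.26 and 19.0 ± 5.99 TPM (SD, n = 3 each). These 3 had estimates above 0 and overlapping groups, so the module's members did not share a direction. MED13L and CDK19 were singled out after their values were seen.

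Core Mediator, the part that binds RNA polymerase, was tested for 26 of 26 listed genes. None was called by limma, and 1, MED27, had an unadjusted p under 0.05, against 1.66% and 15.2% of all tested genes. MED27, chosen after its values were seen, went from 22.9 ± 2.21 to 12.2 ± 2.91 TPM (SD, n = 3 each; limma adjusted p = 0.0720) and was called lower in the authors' deposited table (adjusted p = 0.0364). MED28, the most abundant of the list, averaged 40.1 ± 12.4 and 37.5 ± 16.1 TPM with overlapping groups. Estimates were above 0 in 11 and below 0 in 15 of the 26.

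EYA4 (ENSG00000112319.19, chr6:133240598-133532120, plus strand) is a transcriptional cofactor and phosphatase that works with DNA-binding partners and is linked to inherited cardiomyopathy with hearing loss. It was at 0.0647, 0.665 and 0.654 TPM under the scrambled ASO and at 0.104, 0.254 and 0.319 TPM under the MYH7B ASO. Scrambled ASO replicates 2 and 3 were above every MYH7B ASO library, and scrambled ASO replicate 1 was below them all. Without the limit on low values the log2 difference was -0.23 with a limma adjusted p of 0.704. The authors' deposited table gives EYA4 a mean normalized count of 20.2 and no adjusted p. The antisense gene TARID, which overlaps EYA4 over 29869 bases, was at 0, 1.03 and 1.21 TPM and at 0.546, 4.80 and 1.34 TPM, with overlapping groups.

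The wider network of EYA proteins and their partners was thinly expressed, and 7 of 11 listed genes could be tested. Limma called none of them, and 1, SIX5, had an unadjusted p under 0.05. Among all tested genes 1.66% were called and 15.2% had an unadjusted p under 0.05. SIX5, chosen after its values were seen, averaged 11.8 ± 2.60 and 16.7 ± 1.60 TPM (SD, n = 3 each) with every MYH7B ASO library higher. The limma adjusted p was 0.289. SIX5 was called higher in the authors' deposited table (adjusted p = 0.0238). CDKN1B, a cell cycle inhibitor known as a target of EYA4 in heart and the most abundant of the list, averaged 41.5 ± 5.14 and 39.3 ± 3.41 TPM (limma adjusted p = 0.864).

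The microRNA genes themselves were nearly absent from the poly-A libraries. The MIR499A hairpin row was at 94.2, 0 and 6.55 TPM under the scrambled ASO and at 0 in all 3 MYH7B ASO libraries, and the authors' deposited table gives it a mean normalized count of 5.99. A hairpin is so short that few reads make a large TPM, and scrambled ASO replicate 1 alone carries the high value. This row passed the 1 TPM filter only through the scrambled ASO group, and it counts among the tested pathway genes. It was not called (limma adjusted p = 0.313). The rows for MIR208A, MIR208B and MIR499B were listed at 0. The 4 tested regulators known as targets of these microRNAs in mice, SOX6, PURB, SP3 and MED13, did not share a direction: the estimates of SOX6 and MED13 were below 0, that of SP3 was above 0, and that of PURB was near 0 and turned sign with the scaling. CBX1, another target known from mice, differed by 0.08 on the log2 scale (limma adjusted p = 0.860).

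Other genes known to act on myosin switching, among them transcription factors such as TEAD1 and GATA4, chromatin proteins and signalling kinases, were tested for 20 of 20 listed members. Of these, 1 was called by limma, and 9 had groups that did not overlap, 8 lower and 1 higher. Over all tested genes 1.66% were called by limma, and the groups did not overlap in 14.1% lower and 7.11% higher. The authors' deposited table called 3 of the 20 lower and 1 higher. TEAD1, which binds MCAT elements in the slow myosin promoter, was at 42.1, 43.9 and 39.4 TPM and at 24.3, 24.4 and 23.8 TPM. It fell by 0.76 on the log2 scale (SE 0.13, limma adjusted p = 0.0316). With any 1 library left out the limma adjusted p was 0.0633 to 0.132, above the threshold in all 6 cases. GATA4, the most abundant of the list, was at 146, 153 and 166 TPM and at 141, 132 and 107 TPM, without overlap, and its log2 difference of -0.30 had a limma adjusted p of 0.370. Over all the lists, 4 of 121 tested pathway genes were called by limma (3.31%, against 1.66% of all tested genes), MYH7B, MYL2, TBL1X and TEAD1, all lower. MYH7B is the ASO target itself, and beside the regulators and myosins 3 of 111 tested pathway genes were called. The lists were chosen with earlier results of these data known, so the share called is not independent of the data. With 1 library left out 1 to 2 pathway genes were called, and without the filter on low values 0. The authors' deposited table also gives an adjusted p to 121 pathway genes, but not to the same ones: it includes MED12L and leaves out MIR499A. It called 14 of these lower and 2 higher, against 5.69% lower and 3.02% higher over all its genes with an adjusted p.

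**Figure D4:**
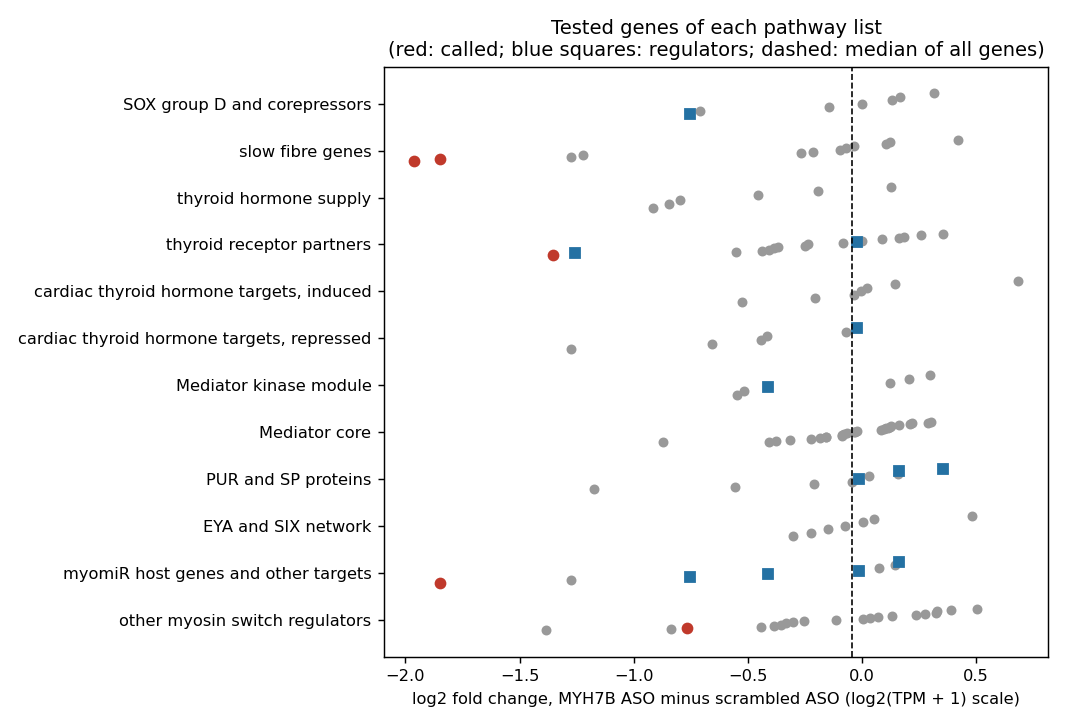
Log2 fold change of each tested gene by pathway list (log2(TPM + 1) scale, MYH7B ASO minus scrambled ASO); red circles are called genes, blue squares the regulators and the dashed line the median of all tested genes, and the MIR499A hairpin row is not drawn. Genes in more than 1 list appear in each; the 3 lower points of the Mediator kinase module are MED13, MED13L and CDK19.

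Reordered MYH7B ASO replicate 1, which may have been quantified against another annotation, had THRB at 1.56 TPM and MED13 at 5.71 TPM, both below all 3 scrambled ASO libraries. PURA, at 10.1 TPM, was above all of them. SOX6, at 8.37 TPM, lay inside their range, and DIO2 (0.0720 TPM) and EYA4 (0.208 TPM) did too. This library also stood apart in makeup, with 17.2% of TPM in mitochondrially encoded genes and 14823 genes at 1 TPM, and the part of this in its levels was not tested. It departed from the other MYH7B ASO libraries in THRA, at 35.0 TPM the highest of all, and in PURB (9.71 TPM) and SP3 (21.7 TPM), each below every other library. Its ratio of THRA to THRB was 22.5, and that of PURA to PURB 1.05. With this library added, none of the 7 regulators was called by limma. The SP3 difference was then 0.07.

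The genes whose levels followed a regulator most closely over the 6 libraries were looked up among genes that averaged 5 TPM or more, by Pearson r of log2(TPM + 1), as a description. For SOX6 they included OLFML1 and LRP2 (r of 0.9989 and 0.9931). For THRB they were PDE7B, ADAM19 and TNS1 (0.9951, 0.9947 and 0.9933), and for MED13 they were ACTA1, GNAQ and ATP1B3 (0.9927, 0.9922 and 0.9918). All points share 2 groups of 3 libraries. An r above 0.95 was reached by 106 of 10385 genes with SOX6, 89 with THRB and 104 with MED13. ACTA1, the skeletal alpha-actin gene that is also made in heart, was called by limma, going from 21.5, 34.4 and 29.01 TPM to 10.7, 10.4 and 9.87 TPM (log2 difference -1.35, adjusted p = 0.0156).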

How the data were processed

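Poly-A RNA of 7 libraries was measured. Per the file headers, the deposited expression table holds TPM, and the aligner, quantifier and annotation are not given in the sources used here. The submitters' processing notes name GRCh38.p13 and DESeq2. The authors' deposited comparison table holds a mean normalized count (a signal), a shrunken log2 fold change, a test score, and a p-value with its adjusted value.

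The column of MYH7B ASO replicate 1 has values in its first 58721 positions only. Assigned to sorted GENCODE 29 identifiers it correlated at 0.955 (median r across genes) with the other libraries, against 0.408 as deposited, and it was used only as an alternative.

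Genes averaging 1 TPM or more in the 6 libraries were fitted with limma 3.58.1 (R 4.3.3; lmFit and eBayes with trend) on log2(TPM + 1). This scale understates changes of low genes. The adjusted p is Benjamini-Hochberg over 15988 genes, and a gene under 0.05 is called. TPM keeps no depth, so no counting interval is given. Tables were made with Python 3.11.15 and pandas 2.3.3.

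The regulators and gene lists were chosen with earlier results of these data known. The named genes were the 9 regulators, the 3 myosins, each called list member, the most abundant tested member of each list, tested genes that overlap a regulator, and the 3 genes closest in pattern to SOX6, THRB and MED13; others are said to be chosen after their values were seen. Some genes that fall under these criteria are not reported here. Alternatives covered pseudocount, filter, scaling, variance setting, replicate blocks and each library left out.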

Additional observations from a re-analysis of the deposited data

How the results depend on the processing

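No regulator was called by limma under any of the 18 alternatives: of 125 regulator values none passed the threshold, and the lowest adjusted p was 0.108. SOX6, THRB, MED13, PURA and SP3 kept their direction. The log2 difference of THRA turned to 0.0432 with median-ratio rescaling, 0.0450 with quantile rescaling, 0.0039 without mitochondrial genes and 0.10 with MYH7B ASO replicate 1 added, and with 1 library left out it ran from -0.0953 to 0.0818. That of PURB turned to 0.0495 with median-ratio rescaling, 0.0968 with quantile rescaling and 0.0113 without mitochondrial genes, and with 1 library left out it ran from -0.0909 to 0.0302. The cause was not tested. The number of genes called (265) was 40 without the filter, 150 without the trend, 170 with MYH7B ASO replicate 1, and 53 to 149 with 1 library left out, lowest without MYH7B ASO replicate 4. The number of called pathway genes (4) was 0 without the filter, 2 with replicate 1, and 1 to 2 with 1 library left out. The level order changed for 0 to 6 regulators with 1 scrambled ASO library left out.

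Both groups share the numbers 2 and 3 in the titles (correlations of deviations 0.076 and 0.110) and 3 and 4 in the descriptions (-0.073 and -0.039), and no label says that a number marks a shared culture. With a replicate block by title or by description number no gene was called by limma (1718 and 1096 at an unadjusted p under 0.05), and so 0 pathway genes. The block by title number put the THRA difference at 0.10, and the block by description number put that of PURB at 0.0165. The THRA to THRB log2 ratio difference was 1.54 and 1.18 under these blocks, and that of PURA to PURB 0.37 and 0.15.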
